A study of Macaca mulatta with 33 samples.

Results

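Corpora lutea of rhesus macaques that received human chorionic gonadotropin (hCG), trilostane and R5020 up to luteal day 15 were compared with untreated corpora lutea of day 10. The comparison rests on 7 of the 33 arrays of the series, chosen by their labels and all in array set 2: replicates 1 to 3 of the treated group and replicates 6 to 9 of the untreated group. All samples were total RNA of luteal tissue dissected from adult cycling females and hybridised to Affymetrix Rhesus Genome arrays. The treated females received rising doses of hCG from day 9 to imitate early pregnancy, so day 15 tissue had 6 days of hCG, together with trilostane (TRL) and the synthetic progestin R5020. The untreated females received none of the 3 agents. No untreated day 15 arrays were analysed here, so the agents and the luteal day cannot be told apart in this comparison. Other arrays of set 2 carried tissue of day 15 after hCG and trilostane without R5020 (replicates 1 to 3) and tissue of day 10 after 1 day of all 3 agents (replicates 1 to 4). Set 1 carried day 15 tissue after hCG alone (replicates 1, 2, 4 and 5) and untreated replicates 1 to 4. It also carried day 10 tissue after 1 day of hCG (4 arrays) and after 1 day of hCG and trilostane (4 arrays). Those day 10 arrays entered the fit that estimated the spread, and no comparison used them.

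The corpus luteum is a transient endocrine gland whose steroidogenic cells turn cholesterol into progesterone. The protein STAR carries cholesterol into mitochondria, where it is cleaved to pregnenolone, and 3-beta-hydroxysteroid dehydrogenase converts pregnenolone to progesterone. Chorionic gonadotropin acts through the luteinizing hormone receptor and cyclic AMP to keep the gland alive in early pregnancy. Trilostane blocks 3-beta-hydroxysteroid dehydrogenase, and R5020 activates the progesterone receptor, so progestin is the only steroid signal given back.

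Of 10568 genes measured, 189 (1.79%) passed an adjusted p of 0.05 in the limma fit, 82 higher (0.776%) and 107 lower (1.01%) in the treated tissue. In 188 of these the 3 treated arrays lay outside the range of the 4 untreated arrays. Among all 10568 genes, 1306 (12.4%) were separated in this way, 618 higher (5.85%) and 688 lower (6.51%). The called genes differed by a median of 1.86-fold, 77 of them by at least 2-fold (33 higher and 44 lower) and 15 by at least 4-fold. The called counts of the gene lists below stand against the shares of 1.79% in either direction, 0.776% higher and 1.01% lower. Over all probe sets, 427 of 29134 (1.47%) were called, 197 higher and 230 lower, and 3688 had an unadjusted p under 0.05 where 1457 would be expected by chance. The count of 427 fell to 151 without treated replicate 1, to 196 without treated replicate 2 and to 209 without untreated replicate 6, and ran up to 450 over the other single omissions. It was 86 when only the 7 arrays estimated the spread, and 25 of the 38 named calls ended in that setting. With the 14 arrays of set 2, 8 of the 38 ended.

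**Figure D1:**
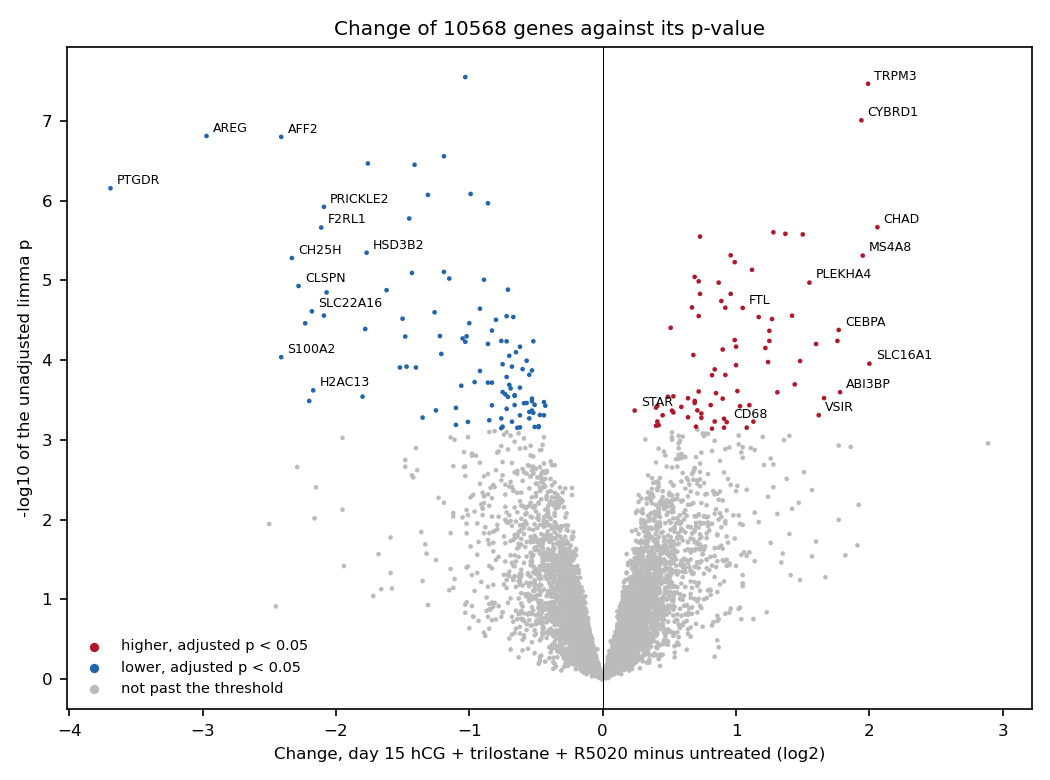
Each point is a gene: the horizontal axis is the change between treated and untreated tissue on the log2 scale, the vertical axis the -log10 of its unadjusted limma p. Red points (82 genes) were higher and blue points (107 genes) lower at an adjusted p under 0.05. PTGDR, AREG, AFF2, TRPM3 and CYBRD1 are among the points that lie far from the rest of the 10568 genes.

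Between arrays, the SD of the log2 differences over probe sets was 0.379 to 0.412 among the 3 treated arrays and 0.435 to 0.552 between treated and untreated arrays. Untreated replicate 7 stood apart from the other untreated arrays, at 0.476 to 0.54 against 0.343 to 0.39 among them. Replicate 4 of the treated group, in set 3, is not used. Its values nearly equal those of replicate 4 of the group without R5020 (SD 0.192, r = 0.9938 over probe sets, not independent of each other), against a median SD of 0.477 over 528 pairs. Among the called genes the treated array farthest from the untreated mean was replicate 1 in 89, replicate 2 in 61 and replicate 3 in 39.

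The tissue expressed the defining genes of luteal steroidogenic cells in both groups. INHA, FDX1 and STAR lay above 13 on the log2 intensity scale in all 7 arrays. Of 7 measured luteal cell markers, 1 was called higher (STAR) and 2 lower (HSD3B2 and NR5A2), where 0.776% and 1.01% of all genes were. In RNA of whole tissue, fewer cells of a type and less RNA per cell cannot be told apart.

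Steroid synthesis genes moved in both directions. HSD3B2, a 3-beta-hydroxysteroid dehydrogenase of the kind that trilostane inhibits (probe set MmugDNA.19420.1.S1_at), read 13.62, 13.40, 13.68 and 12.96 in untreated replicates 6 to 9 and 11.16, 11.15 and 12.63 in treated replicates 1 to 3. All treated arrays lay below all untreated arrays, and treated replicate 3 was close to the untreated range. The log2 change was -1.77 ± 0.30 (SE), a 3.40-fold lower level (limma adjusted p = 0.00298). HSD11B1, which regenerates active glucocorticoid from its inactive form, read 12.58 to 12.69 untreated and 11.78, 12.05 and 11.84 treated, a change of -0.75 ± 0.16 (adjusted p = 0.0168). NR5A2, a nuclear receptor that activates steroidogenic genes, read 11.10, 11.17, 10.92 and 11.09 untreated against 10.39, 10.18 and 10.54 treated. It changed by -0.70 ± 0.16 (adjusted p = 0.025), and all 3 of its probe sets were called lower.

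STAR went the other way, from 14.60, 14.65, 14.48 and 14.48 untreated to 14.71, 14.76 and 14.89 treated. That change of 0.24 ± 0.06 (adjusted p = 0.0367) was the smallest called, near the top of a scale that ends at 15.12. CYP17A1, which makes androgen precursors, read 10.88 and 10.79 in treated replicates 1 and 3 but 8.37 in replicate 2, below the untreated range of 8.51 to 9.39. Its change of 1.04 ± 0.44 did not pass (adjusted p = 0.31), although it did without treated replicate 2, at 1.86 (adjusted p = 0.0198). CYP11B1, a steroid 11-beta-hydroxylase, showed the same array apart, at 10.23 and 10.11 in treated replicates 1 and 3 and 7.20 in replicate 2 (untreated 7.89 to 8.42, adjusted p = 0.569). CYP19A1, the aromatase that makes estrogen, read 12.94 to 13.32 treated and 10.41 to 13.66 untreated, and the 0.86 ± 0.47 change did not pass (adjusted p = 0.479). Of 16 steroidogenesis genes measured, 10 lay above 0, 1 was called higher and 3 lower, with a median of 0.11. Over all genes, 50.8% lay above 0, 0.776% were called higher and 1.01% lower, and the median was 0.003. The STAR call ended in each single omission except that of untreated replicate 7 and under 6 other settings (adjusted p up to 0.243), that of NR5A2 without treated replicate 1 or 2 or untreated replicate 6, 7 or 9 (up to 0.147), and that of HSD11B1 without treated replicate 1 or 3 (up to 0.105). The HSD3B2 call held in each of the 7 omissions and ended when only the 7 arrays estimated the spread (adjusted p = 0.103).

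Genes of sterol synthesis, the pathway that supplies cholesterol for steroids, lay mostly higher, and 1 of them was called. Of 15 measured members, 12 lay above 0 and 9 had an unadjusted p under 0.05, all of them higher, where 7.21% of all genes did so in that direction. The list's median change was 0.70. In 4 members the treated arrays lay above all untreated arrays, where 5.85% of all genes did. The list's summed linear intensity overlapped between groups (25700 to 37600 treated, 15800 to 28100 untreated). These genes share samples and may vary together, so their count is not one of independent observations. IDI1, an isomerase of the isoprenoid units, read 10.83, 10.83, 10.78 and 9.68 untreated and 11.77, 11.68 and 11.38 treated, a change of 1.08 ± 0.28 (adjusted p = 0.0489). SQLE, which oxidises squalene, read 9.26, 9.92, 9.24 and 8.62 untreated and 10.59, 10.66 and 9.93 treated, with a change of 1.14 ± 0.40 that did not pass (adjusted p = 0.183). CYP51A1, the lanosterol demethylase, and EBP, a sterol isomerase, had changes of 1.05 ± 0.30 (adjusted p = 0.0809) and 1.05 ± 0.29 (adjusted p = 0.0688). MVK, FDPS and SREBF2 lay within 0.07 of no change. Treated replicate 3 was the lowest treated array for IDI1, SQLE, CYP51A1 and EBP. The IDI1 call was lost in each omission except that of untreated replicate 7 (adjusted p up to 0.209). None of the 9 genes of cholesterol uptake and efflux was called (median 0.21), and 3 of them had an unadjusted p under 0.05.

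CH25H, the enzyme that makes 25-hydroxycholesterol, was among the largest falls. It read 10.24, 9.72, 10.53 and 9.88 untreated and 7.84, 7.90 and 7.55 treated, so the groups did not overlap. The change was -2.33 ± 0.41 (5.01-fold lower, adjusted p = 0.00319), and it held in each omission and each other setting.

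A prostaglandin receptor and a growth factor had the largest falls. PTGDR, a receptor of prostaglandin D (probe set MmuSTS.3901.1.S1_at), read 9.07, 8.65, 9.38 and 8.36 untreated and 4.40, 5.67 and 5.46 treated. Every treated array lay under 6.19, the median of all values, so the level was at least 6.40-fold lower (log2 change -3.69 ± 0.56, adjusted p = 0.00102). AREG, a ligand of the epidermal growth factor (EGF) receptor that follicles release in response to gonadotropin (probe set MmugDNA.10712.1.S1_at), read 13.91, 13.37, 13.83 and 13.76 untreated and 10.58, 11.49 and 10.18 treated. It was 7.82-fold lower (-2.97 ± 0.41, adjusted p = 0.000396). F2RL1, a receptor activated by proteases such as trypsin, read 10.96, 10.41, 11.08 and 11.17 untreated and 9.18, 8.57 and 8.66 treated, 4.31-fold lower (adjusted p = 0.00187). The groups did not come near each other in any of these 3 genes, and all 3 calls held in each omission and each other setting.

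Other members of these families moved less. Of 8 EGF receptor ligands and receptors, AREG was the 1 called. HBEGF and BTC, further ligands, had changes of -1.02 ± 0.35 (adjusted p = 0.175) and -0.96 ± 0.33 (adjusted p = 0.18), and the receptor EGFR a change of 0.74 ± 0.30 (adjusted p = 0.285). The ligand EGF read 7.92 in treated replicate 1 against 5.47 and 5.10 in the others and 4.67 to 5.45 untreated (adjusted p = 0.302). Of 7 prostaglandin genes PTGDR was the 1 called. HPGD, which inactivates prostaglandins, read 10.37, 8.88 and 9.68 treated and 10.08 to 11.88 untreated, with groups that overlapped (-1.48 ± 0.43, adjusted p = 0.095).

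In the activin and inhibin family, BAMBI, a decoy receptor that dampens signalling of this superfamily, read 7.45, 7.94, 7.75 and 7.02 untreated and 9.20, 9.48 and 8.20 treated (1.42 ± 0.28, adjusted p = 0.00768). FSTL3, which binds and neutralises activin, read 9.61, 9.06, 9.16 and 9.15 untreated and 7.87, 8.16 and 8.68 treated (-1.01 ± 0.26, adjusted p = 0.044). These were the 2 called among 14 members, and treated replicate 3 lay nearest to the untreated arrays in both. The inhibin subunit INHA, the activin subunit INHBA and the activin binder FST did not pass, with changes of 0.29, -0.22 and 0.42. The BAMBI call ended without treated replicate 1 or 2 (adjusted p up to 0.0716). The FSTL3 call ended without either of those or untreated replicate 6, 8 or 9 (up to 0.263).

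Of 18 genes of gonadotropin and cyclic AMP signalling 1 was called. PDE7B, a phosphodiesterase that degrades cyclic AMP, read 7.15, 8.58, 7.53 and 6.96 untreated and 8.93, 9.47 and 8.69 treated, 2.79-fold higher (1.48 ± 0.32, adjusted p = 0.0159). Untreated replicate 7 nearly reached the treated range. The orphan receptor NR4A1, an immediate early gene, read 10.46, 9.62, 9.18 and 9.86 untreated and 8.65, 9.12 and 8.71 treated, and did not pass (-0.95 ± 0.27, adjusted p = 0.0777). The PDE7B call ended without treated replicate 1 or 2 or untreated replicate 6 or 9 (up to 0.115).

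No sex steroid receptor was called among 7 measured. PGR, the progesterone receptor that R5020 activates, read 7.21, 6.31, 7.14 and 6.58 untreated and 6.09, 6.01 and 6.35 treated, with a change of -0.66 ± 0.25 (adjusted p = 0.244). HTR2B, a serotonin receptor, read 9.51, 8.55, 9.84 and 10.18 untreated and 10.52, 8.95 and 8.48 treated, a change of -0.20 ± 0.60 (adjusted p = 0.939) whose sign turned in 4 alternatives.

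Of 24 genes known as progestin or glucocorticoid targets, 11 lay above 0 (median -0.06). In this list 2 were called higher and 1 lower, where 0.776% and 1.01% of all genes were. The lower gene was HSD11B1. CEBPA, a transcription factor of metabolic differentiation, read 8.10, 10.23, 8.62 and 9.17 untreated and 10.36, 10.73 and 11.31 treated, 3.41-fold higher (1.77 ± 0.36, adjusted p = 0.00901), and all 3 of its probe sets were called higher. IGFBP1, a secreted carrier of insulin-like growth factors, read 12.06, 12.14, 13.08 and 12.34 untreated and 14.31, 14.23 and 13.95 treated, 3.38-fold higher (1.76 ± 0.37, adjusted p = 0.0106). It was also the 1 called among 16 insulin and growth factor signalling genes. FKBP5, a chaperone induced through glucocorticoid and progesterone receptors, read 6.69, 7.29 and 7.38 treated and 7.09 to 7.84 untreated (-0.24 ± 0.37, adjusted p = 0.86). SGK1, a kinase induced by the same receptors, was separated between the groups (11.90 to 12.62 treated, 11.15 to 11.73 untreated) and narrowly missed the threshold (0.71 ± 0.19, adjusted p = 0.0505). DUSP1, a phosphatase of stress kinases, missed it in the other direction (-0.69 ± 0.18, adjusted p = 0.0573). The CEBPA call ended without treated replicate 3 (adjusted p = 0.0595) and with only the 14 or the 7 arrays (up to 0.194), and the IGFBP1 call without treated replicate 1 or 2 (up to 0.0662).

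**Figure D2:**
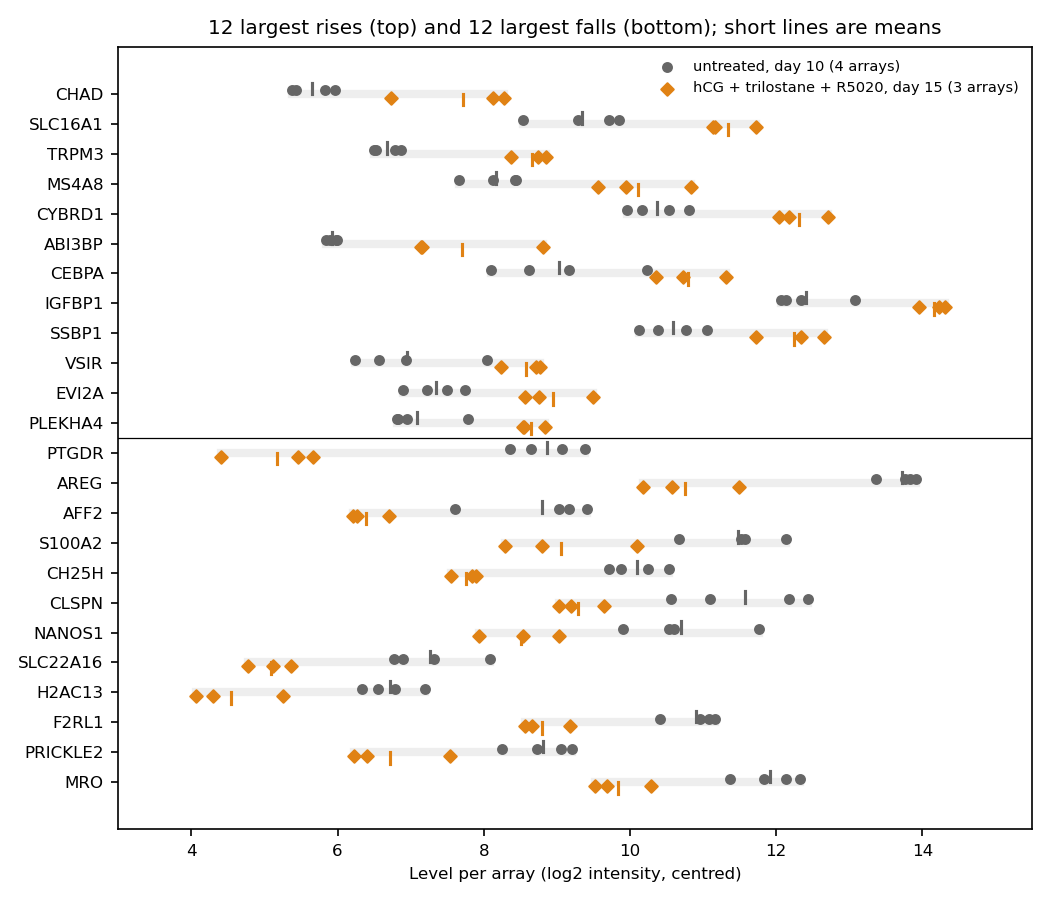
Centred log2 intensity per array of the 12 named genes with the largest rise (top) and the 12 with the largest fall (bottom). Grey circles are the 4 untreated arrays, orange diamonds the 3 treated arrays and short vertical lines the group means; in every gene the diamonds lie wholly to one side of the circles, as the choice of these genes required.

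CYBRD1 and FTL, both of iron handling, rose. CYBRD1, a ferric reductase that prepares iron for uptake (probe set MmugDNA.32799.1.S1_at), read 9.96, 10.81, 10.53 and 10.16 untreated and 12.71, 12.17 and 12.04 treated. It was 3.84-fold higher (1.94 ± 0.26, adjusted p = 0.000396), and the call held in each omission and each other setting. FTL, the light chain of the iron store ferritin, read 9.51, 9.03, 10.01 and 9.44 untreated and 10.92, 10.23 and 10.50 treated (1.05 ± 0.20, adjusted p = 0.00704). FTL was the 1 called among 9 iron and copper genes, of which 7 lay above 0 (median 0.36). The iron exporter SLC40A1 was higher in every treated array (11.87 to 12.20 against 11.27 to 11.51) and the transferrin receptor TFRC lower in every one (11.55 to 11.71 against 11.97 to 12.29), but neither passed (adjusted p = 0.119 and 0.373). Ceruloplasmin, CP, a copper protein that oxidises iron, had a change of 1.14 ± 0.32 that did not pass (adjusted p = 0.0713). Its levels were low, at 4.90 to 5.59 untreated, all under 6.19, and 5.83, 6.49 and 6.63 treated. The size of its change is therefore uncertain. The FTL call ended without treated replicate 1 (adjusted p = 0.076).

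SLC16A1, a transporter of lactate and pyruvate, read 8.53, 9.85, 9.29 and 9.71 untreated and 11.72, 11.16 and 11.14 treated, 3.99-fold higher (adjusted p = 0.0166). SLC22A16, a carnitine transporter, moved the other way, from 6.90, 6.77, 7.32 and 8.09 to 5.36, 4.78 and 5.12, at least 2.12-fold lower (adjusted p = 0.0075). In set 1 its untreated mean (5.81) already lay under 6.19, as did its mean with hCG alone (4.91). The SLC22A16 call held in each omission but ended with all 8 untreated arrays and no array set term (limma adjusted p = 0.0763). MGST1, a microsomal glutathione transferase, read 12.56, 12.50, 11.88 and 11.39 untreated and 12.87, 13.12 and 13.01 treated (0.92 ± 0.21, adjusted p = 0.0207). It was the 1 called among 19 antioxidant genes, of which 12 lay above 0. Of the 19, 6 were separated upward and 1, GSTA4, downward, where 5.85% and 6.51% of all genes were. The catalase CAT and the mitochondrial dismutase SOD2 were separated without passing, with changes of 0.94 ± 0.38 (adjusted p = 0.266) and 0.67 ± 0.20 (adjusted p = 0.106). The SLC16A1 call ended without treated replicate 1 or 2 or untreated replicate 6 (up to 0.113), and that of MGST1 without any 1 treated array or untreated replicate 8 or 9 (up to 0.0994). None of 18 oxidative phosphorylation genes passed, and none had an unadjusted p under 0.05 (median -0.01).

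TRPM3, MS4A8, CHAD and ABI3BP were among the largest rises. TRPM3, a cation channel that opens to pregnenolone sulfate, read 6.52, 6.87, 6.79 and 6.50 untreated and 8.85, 8.74 and 8.37 treated. It was 3.96-fold higher (1.99 ± 0.26, adjusted p = 2e-04) and held in each omission and each other setting. MS4A8, a membrane protein of the family of CD20, read 7.66, 8.44, 8.43 and 8.13 untreated and 9.95, 10.83 and 9.56 treated, 3.86-fold higher (adjusted p = 0.00304). CHAD, a leucine-rich matrix protein first known from cartilage, read 5.97, 5.43, 5.37 and 5.83 untreated and 8.12, 8.28 and 6.73 treated, at least 2.87-fold higher (adjusted p = 0.00187). ABI3BP, another matrix protein, read 5.84, 5.89, 5.98 and 5.99 untreated and 7.14, 7.16 and 8.81 treated, at least 2.86-fold higher (adjusted p = 0.0281). Treated replicate 3 was the low array for CHAD and the high array for ABI3BP. Of 24 matrix genes on the list none was called, 10 lay above 0 and the median was -0.09. The ABI3BP call ended without treated replicate 3 or untreated replicate 6, 8 or 9 (up to 0.19).

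EVI2A, a membrane protein encoded within an intron of NF1, read 7.23, 7.50, 7.75 and 6.90 untreated and 8.57, 9.50 and 8.76 treated, 3.03-fold higher (adjusted p = 0.0112). PLEKHA4, a lipid-binding adaptor, read 6.82, 7.79, 6.81 and 6.95 untreated and 8.84, 8.55 and 8.54 treated, 2.93-fold higher (adjusted p = 0.00462). VSIR, an inhibitory receptor of immune cells, read 6.94, 8.05, 6.57 and 6.24 untreated and 8.23, 8.77 and 8.72 treated (1.62 ± 0.41, adjusted p = 0.0398). SSBP1, which binds single-stranded mitochondrial DNA, was called 3.16-fold higher by 1 probe set (adjusted p = 0.0303), while its other 2 probe sets had changes of -0.04 and -0.02. The EVI2A call ended without treated replicate 2 (adjusted p = 0.101), the SSBP1 call without treated replicate 2 or 3 or untreated replicate 6 or 9 (up to 0.162), and the VSIR call in each omission except that of untreated replicate 7 (up to 0.157).

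CLSPN, AFF2, NANOS1, H2AC13 and MRO were among the largest falls. CLSPN, a checkpoint mediator of DNA replication, read 12.18, 10.56, 12.43 and 11.10 untreated and 9.03, 9.64 and 9.19 treated, 4.86-fold lower (-2.28 ± 0.42, adjusted p = 0.00489). AFF2, a nuclear protein of transcription elongation, read 9.16, 7.60, 9.03 and 9.41 untreated and 6.21, 6.26 and 6.70 treated, 5.31-fold lower (adjusted p = 0.000396), with all 3 of its probe sets called. NANOS1, an RNA-binding repressor of translation, read 11.77, 10.54, 10.60 and 9.91 untreated and 8.54, 9.03 and 7.94 treated, 4.60-fold lower (adjusted p = 0.0315). The histone gene H2AC13, a member of a family of near-identical copies that 1 probe set may not tell apart, was at least 1.44-fold lower (adjusted p = 0.0276). MRO, a protein of the nucleolus, was 4.25-fold lower by 1 probe set (adjusted p = 0.00768), while its other 2 had changes of -0.04 and 0.12. The NANOS1 call ended without any 1 treated array or untreated replicate 6 or 8 (up to 0.134), the H2AC13 call without treated replicate 1 or 2 or untreated replicate 8 or 9 (up to 0.142), and the MRO call without treated replicate 1 (0.0583).

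All 17 measured genes of the cell division list lay below 0, and none of them was called. Their median change was -0.60. In 15 the unadjusted p was under 0.05, where 6.78% of all genes were lower by that criterion, and in 8 the treated arrays lay below all untreated arrays, where 6.51% of all genes did. TPX2, which organises the mitotic spindle, read 7.36, 8.00, 7.28 and 7.20 untreated and 6.55, 6.41 and 6.86 treated (-0.85 ± 0.22, adjusted p = 0.0533). MCM3, part of the replicative helicase, read 8.93, 9.26, 8.66 and 8.64 untreated and 7.95, 7.95 and 8.39 treated (-0.78 ± 0.22, adjusted p = 0.0729). TOP2A, which untangles DNA before mitosis, read 9.31, 9.41, 9.57 and 9.18 untreated and 8.11, 7.85 and 9.34 treated, so treated replicate 3 lay within the untreated range (-0.93 ± 0.37, adjusted p = 0.265). MKI67, CCNB1 and CDK1 also had their highest treated value in replicate 3. These genes share samples and are known to vary together in dividing cells, so their count is not one of independent observations.

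S100A2, PRICKLE2 and THY1 also fell. S100A2, a calcium-binding protein of epithelia, read 10.67, 11.52, 11.58 and 12.13 untreated and 8.29, 8.80 and 10.09 treated, 5.33-fold lower (-2.41 ± 0.52, adjusted p = 0.0147). It was the 1 called among 7 epithelial markers, whose summed linear intensity was 3680 to 4660 in treated and 5540 to 7720 in untreated arrays with S100A2 and overlapped without it (3230 to 4120 and 3220 to 3910). The markers KRT18 (0.39) and UPK3B (0.26) were separated upward, and KRT8 (-0.92) downward, without passing (adjusted p = 0.609, 0.177 and 0.123). The part of epithelial cells in this result was not tested. PRICKLE2, a planar cell polarity protein, read 9.06, 8.25, 9.21 and 8.73 untreated and 7.54, 6.40 and 6.23 treated, 4.26-fold lower (adjusted p = 0.00132). THY1, a surface glycoprotein of fibroblasts, read 11.66, 11.75, 11.72 and 11.58 untreated and 10.63, 11.02 and 11.21 treated (-0.72 ± 0.18, adjusted p = 0.0357). It was the 1 called among 11 fibroblast markers, 7 of which lay above 0, and the summed intensity of these markers overlapped between groups (26100 to 44200 treated, 28700 to 38600 untreated). The S100A2 call ended without treated replicate 1 or 2 or untreated replicate 9 (up to 0.129), and that of THY1 in each omission except that of treated replicate 3 (up to 0.258). The THY1 call also ended under 5 other settings (limma adjusted p up to 0.13). A second THY1 probe set had a change of -0.69 ± 0.27 that did not pass (limma adjusted p = 0.237).

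CD68, a lysosomal protein abundant in macrophages, read 8.63, 9.66, 9.23 and 9.01 untreated and 10.07, 9.70 and 10.42 treated (0.93 ± 0.24, adjusted p = 0.0441). It was the 1 called of 13 macrophage markers, of which 12 lay above 0, with a median of 0.59. CD14, CSF1R, MRC1 and the complement genes C1QA, C1QB and C1QC did not pass, with changes of 0.31 to 0.80 and overlapping groups. The list's summed linear intensity was 14200 to 15600 in treated and 6370 to 14200 in untreated arrays, and the markers MARCO and MSR1 lay near or under 6.19 in most arrays. In C1QA, untreated replicates 7 and 8 (11.91 and 11.50) lay among the treated arrays (11.94, 11.92 and 11.20) and replicates 6 and 9 (10.16 and 10.43) below them. The part of macrophage number in the CD68 call was not tested. The call ended without treated replicate 1 or 3 or untreated replicate 6, 8 or 9 (up to 0.202), and with all 33 arrays, with quantile normalization, without the filter or with fewer arrays for the spread (up to 0.223).

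No marker of the vasculature was called. None of 13 endothelial markers was called or had an unadjusted p under 0.05, and their changes ran from -0.31 to 0.11. None of 8 pericyte markers was called (median -0.13), nor any of 15 angiogenic factors, 10 MHC class II genes, 21 chemokines and cytokines, 20 interferon response genes, 15 genes of the unfolded protein response or 14 of cell death. Nor was any of 6 T and NK lymphocyte, 3 B lymphocyte, 4 neutrophil and mast cell, 3 red cell or 7 granulosa cell markers. The summed linear intensity of the T and NK markers did not overlap, at 23800 to 33900 in treated and 19500 to 23100 in untreated arrays. Of these 6 markers, 2 lay above 0 and 4 below (median -0.10), and the part of lymphocyte number was not tested. Of the cell death genes 11 lay below 0 (median -0.20). Unadjusted p-values under 0.05 numbered 6 in the chemokine list, 4 in the cell death list, 2 in the pericyte list and 1 each in the angiogenic, MHC class II, interferon, unfolded protein and neutrophil lists, where 14% of all genes were under it. The neutrophil gene was S100A8, part of calprotectin (1.82 ± 0.78, adjusted p = 0.312).

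**Figure D3:**
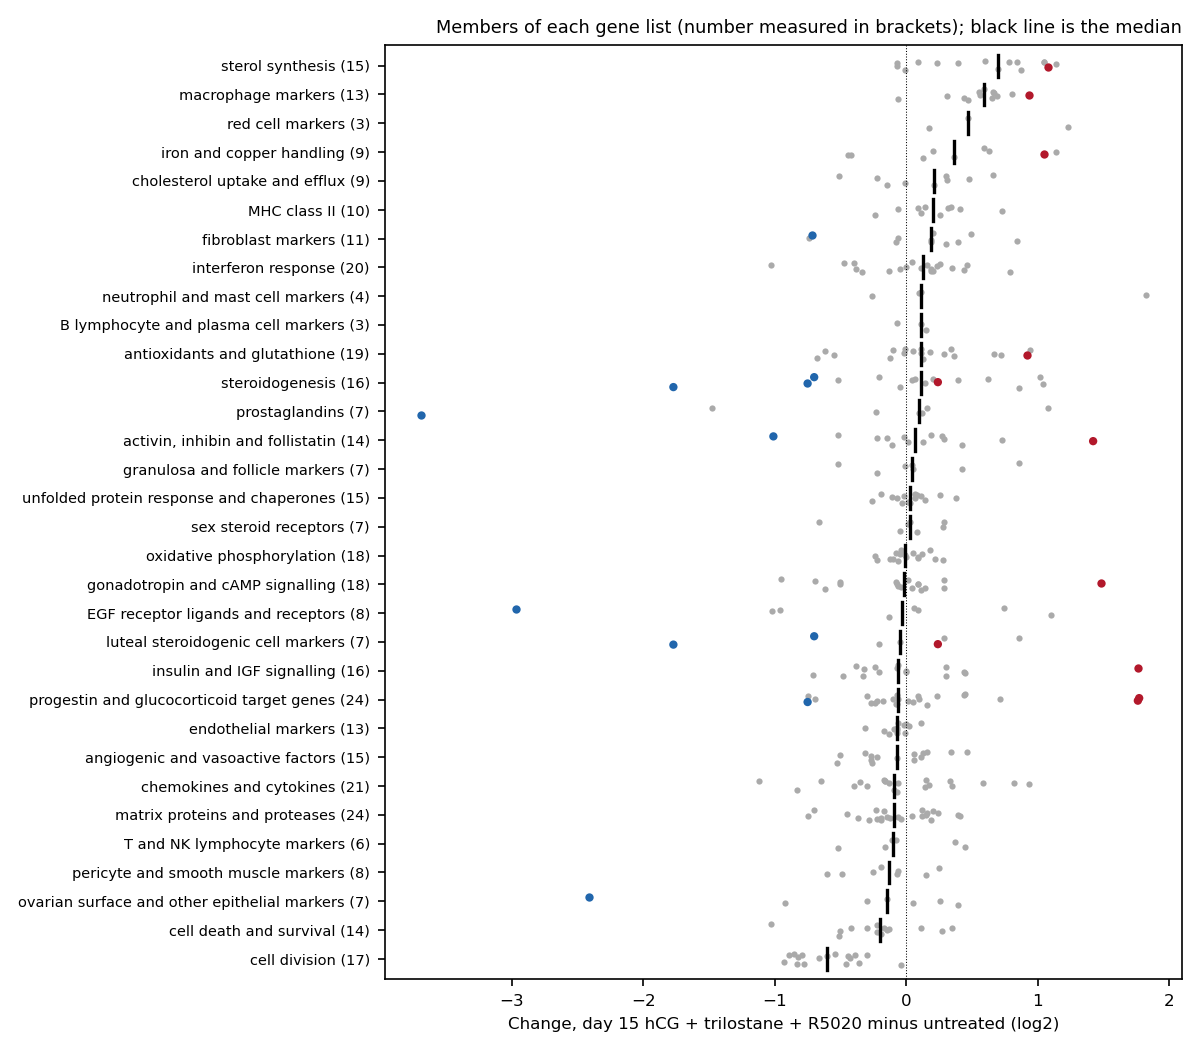
Change of every measured member of the 32 gene lists between treated and untreated tissue on the log2 scale, 1 row per list ordered by its median (black line), with the number measured in brackets. Coloured points passed the threshold (red higher, blue lower) and grey points did not; all 17 cell division genes lie left of 0, and 12 of 15 sterol synthesis genes right of it.

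Outside the lists and the largest changes, 26 further genes were called in each of the 7 omissions, and the following were chosen after their values were seen. ID4, an inhibitor of helix-loop-helix transcription factors, read 12.77, 12.89, 13.08 and 12.89 untreated and 11.81, 11.73 and 11.73 treated (-1.15 ± 0.21, adjusted p = 0.00447). APPL2, an adaptor of endosomes, read 12.58, 12.27, 12.52 and 12.38 untreated and 11.00, 11.35 and 11.03 treated (-1.31 ± 0.20, adjusted p = 0.00108). MID1IP1, which promotes fatty acid synthesis, read 11.85, 11.39, 11.54 and 11.50 untreated and 10.12, 10.18 and 10.18 treated (-1.41 ± 0.21, adjusted p = 0.00061). In all 3 genes the spread within a group was small beside the gap between groups.

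RRAD, a small GTPase that restrains calcium channels, read 8.66 to 8.99 untreated and 6.87, 7.87 and 7.59 treated (-1.45 ± 0.23, adjusted p = 0.00164). RGS16, which shortens G protein signals, read 7.27 to 8.20 untreated and 6.36, 6.39 and 6.79 treated (-1.19 ± 0.21, adjusted p = 0.00401). ZWINT, a kinetochore protein, read 9.15 to 9.80 untreated and 8.43, 8.38 and 8.42 treated (-1.00 ± 0.20, adjusted p = 0.00799). On the rising side, BUB3, a protein of the spindle checkpoint, read 11.25 to 12.14 untreated and 12.75, 12.79 and 12.24 treated (0.99 ± 0.17, adjusted p = 0.00345). PTPN6, a phosphatase of blood cell signalling, read 7.08 to 8.08 untreated and 9.15, 9.02 and 8.44 treated (1.37 ± 0.23, adjusted p = 0.00209). VMP1, a membrane protein of autophagy, read 11.69 to 12.05 untreated and 12.75, 12.45 and 12.65 treated (0.73 ± 0.12, adjusted p = 0.00217). Among the 41 genes called in every omission, 15 were higher and 26 lower.

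The same 6 days of hCG without trilostane and R5020 can be set beside these values, since hCG alone and its untreated arrays lie in set 1 and share none with the comparison above. Of the 189 genes called with the 3 agents, 186 (98.4%) had the same sign with hCG alone, 80 of the 82 higher and 106 of the 107 lower, where 69.7% of all genes had the same sign. Of the 189, 126 were also called in the same direction (66.7% of those calls and 20.8% of the 606 called with hCG alone, which were 5.73% of all genes), and none was called the opposite way. Across all 10568 genes, which are not independent replicates, the changes had a Pearson r of 0.681. The change was larger with the 3 agents in 137 of the 189, which were chosen for passing in that comparison, and the median ratio of the hCG-alone change to it was 0.83. The difference between both changes was tested for every probe set and 0 passed (limma, smallest adjusted p = 0.999), with 792 at an unadjusted p under 0.05 against 1457 expected and a median SE of 0.219.

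**Figure D4:**
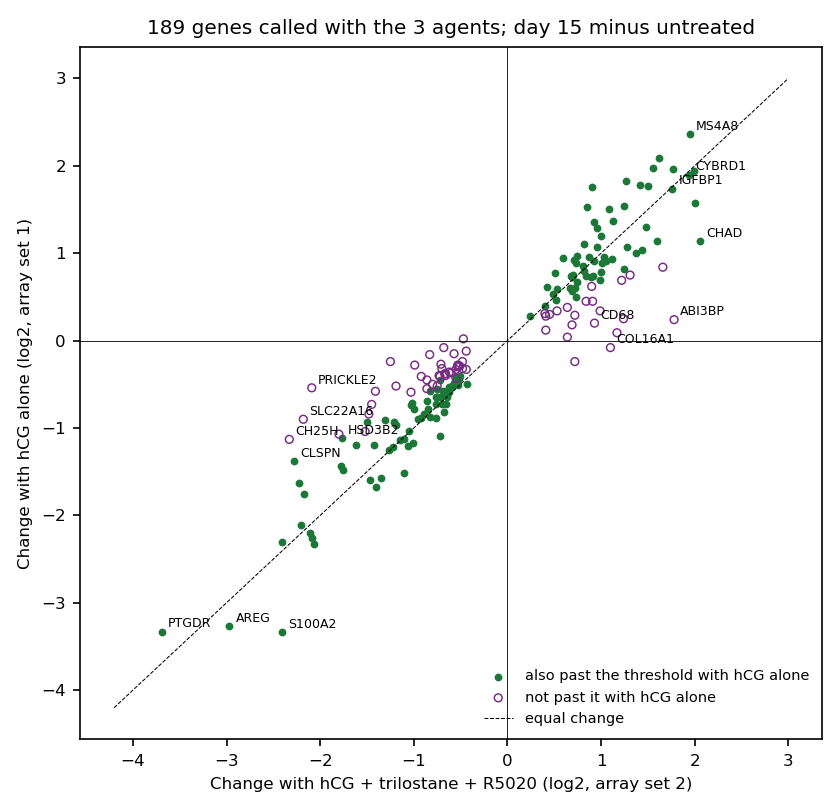
Each point is 1 of the 189 genes called in the comparison; the horizontal axis is its log2 change with hCG, trilostane and R5020 and the vertical axis its log2 change with hCG alone, both at day 15 against untreated arrays of the same array set. Filled green points (126) also passed with hCG alone and open purple points did not; 186 points lie in the quadrants of equal sign, and 137 genes changed more with the 3 agents than with hCG alone.

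Of the largest changes, some had like sizes in both sets of arrays and others did not. AREG changed by -2.97 with the 3 agents and -3.27 with hCG alone, IGFBP1 by 1.76 and 1.74, and CYBRD1 by 1.94 and 1.90. PTGDR, with both treated means under 6.19, was at least 6.40-fold and at least 3.89-fold lower. Larger with the 3 agents were the changes of PRICKLE2 (-2.09 and -0.54), CH25H (-2.33 and -1.13) and CLSPN (-2.28 and -1.38). In these 3 genes the treated means lay closer together than the untreated means of the 2 sets: CH25H, for one, averaged 7.77 and 7.88 treated and 10.09 and 9.02 untreated. ABI3BP was at least 2.86-fold and at least 1.14-fold higher, and CHAD at least 2.87-fold and at least 1.25-fold. For SLC22A16, at least 2.12-fold lower with the 3 agents, both means of set 1 lay under 6.19. CD68 changed by 0.93 and 0.20, and the macrophage list had a median of 0.59 with the 3 agents and 0.06 with hCG alone. HSD3B2 changed by -1.77 and -1.12. No difference of these genes passed. The 3 called genes of opposite sign were COL16A1, a minor collagen (1.10 and -0.08), PRTFDC1, a relative of a purine salvage enzyme (-0.47 and 0.02), and LOC694533 (0.72 and -0.24).

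The lists can be set side by side in the same way. The cell division list had 0 of 17 members above 0 with hCG alone too (median -0.75 against -0.60). The sterol synthesis list had a median of 1.14 with hCG alone and 0.70 with the 3 agents, and the steroidogenesis list 0.17 and 0.11.

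The tissue after 1 day of the 3 agents differed from that after 6 days in 148 genes (1.4%), 64 higher (0.606%) and 84 lower (0.795%) at day 15, and in 333 probe sets. Of the 148, 97 were not called against untreated tissue, and 51 of the 189 were called in the same direction in both comparisons, which share the treated day 15 arrays. HAL, a histidine ammonia lyase, read 9.42, 9.35, 9.19 and 8.73 at day 10 and 5.86, 6.56 and 5.86 at day 15, at least 7.89-fold lower (log2 change -3.08 ± 0.30, adjusted p = 5.01e-06). Untreated arrays lay between them, at 7.24 to 8.12, and the fall from untreated tissue was also called (at least 2.88-fold, adjusted p = 0.00511), while a second HAL probe set had a change of -0.44 there (adjusted p = 0.583). TDRD9, a helicase known from the germ line, showed the same order, with 7.58 to 8.82 at day 10, 6.86 to 7.50 untreated and 5.59, 5.72 and 5.59 at day 15 (at least 3.89-fold lower than at day 10, adjusted p = 0.000145). The count of 333 fell to 81 without treated day 15 replicate 1, to 151 without replicate 2, and to 108, 195 and 153 without day 10 replicates 1, 2 and 3.

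Further falls from day 10 were those of INSM1, a zinc finger repressor (at least 3.32-fold, adjusted p = 0.0275), DAPL1 (at least 5.39-fold, adjusted p = 0.0224) and MYOM1, a muscle myomesin (a log2 change of -2.70, adjusted p = 0.0128). None of these 3 was called against untreated tissue (adjusted p = 0.0953, 0.456 and 0.571). The rises included those of SYT6, a vesicle protein (at least 3.43-fold, adjusted p = 0.00566), MS4A8 (2.22, adjusted p = 0.00136), SLC16A1 (2.10, adjusted p = 0.0146), SDC1, a heparan sulfate proteoglycan (1.77, adjusted p = 0.0166), and EVI2A (1.76, adjusted p = 0.00731). SYT6 read 9.35, 6.44 and 8.11 at day 15 and 4.55 to 6.15 at day 10, with untreated arrays at 6.20 to 7.11 across the lowest treated one.

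HSD3B2, HSD11B1 and AREG were lower after 6 days of the 3 agents than after 1 day. HSD3B2 read 13.69, 13.82, 13.66 and 13.32 after 1 day of the 3 agents and was lower after 6 days by a change of -1.98 ± 0.30 (adjusted p = 0.00146). HSD11B1 read 13.05, 13.08, 12.84 and 13.10 after 1 day, above all 4 untreated arrays, and changed by -1.12 ± 0.16 from there to 6 days (adjusted p = 0.000706). AREG read 12.93 to 13.12 after 1 day and changed by a further -2.27 ± 0.41 (adjusted p = 0.00553). CH25H and CLSPN were already low after 1 day, at 7.25 to 8.05 and 8.81 to 9.45, with differences of 0.00 ± 0.41 and 0.21 ± 0.42. CEBPA was likewise high after 1 day (10.13 to 10.93, difference 0.17 ± 0.36). Of the cell division genes, 0 of 17 lay above 0 in day 15 against day 10 (median -0.69) and 1, CCNE2, was called (-0.92, adjusted p = 0.014), while the median of day 10 against untreated was 0.01.

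**Figure D5:**
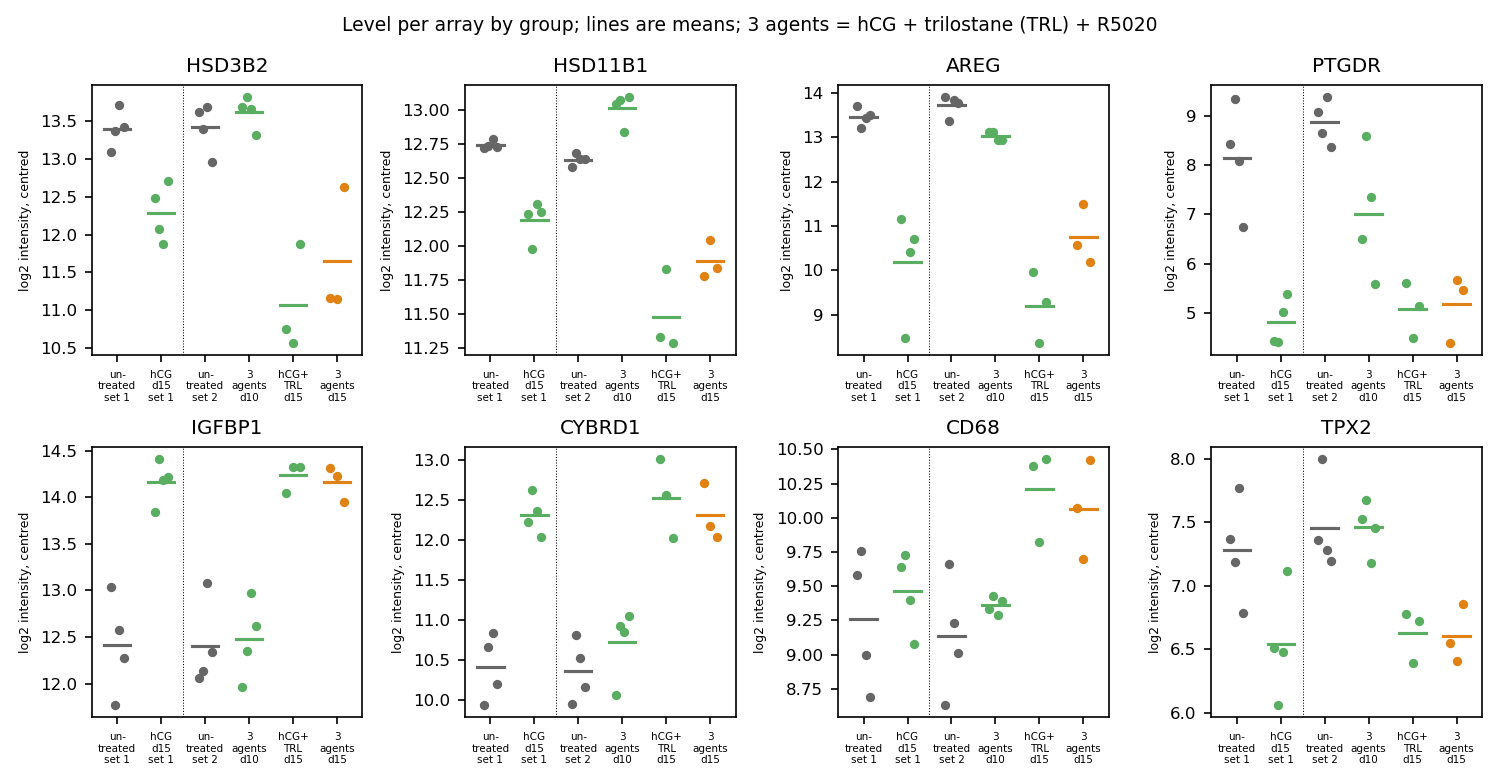
Centred log2 intensity per array of 8 genes in 6 groups: untreated and day 15 hCG alone in array set 1 (left of the dotted line), and untreated, the 3 agents at day 10, hCG with trilostane at day 15 and the 3 agents at day 15 (orange) in set 2. Points are arrays and lines group means; HSD3B2, HSD11B1 and AREG are low in all 3 day 15 groups and high in the day 10 groups, whereas CD68 with hCG alone overlaps its untreated arrays.

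Against day 15 tissue given hCG and trilostane without R5020, 0 genes passed (0%; limma, smallest adjusted p = 0.0746). At an unadjusted p under 0.05 there were 1408 probe sets, where 1457 would be expected. The median SE of a difference was 0.172 on the log2 scale. Both groups share their untreated arrays, against which 786 genes (7.44%) were called without R5020 and 189 with it. AREG read 9.97, 8.37 and 9.28 without R5020 and 10.58, 11.49 and 10.18 with it, which do not overlap, and the difference of 1.55 ± 0.44 did not pass (unadjusted p = 0.00178, adjusted p = 0.351). HSD3B2 read 10.75, 10.57 and 11.88 without R5020, and replicate 3 was the high array in both groups (difference 0.58 ± 0.33, unadjusted p = 0.0864). PRICKLE2 read 8.09, 7.83 and 7.39 without R5020 and differed by -1.05 ± 0.35 (adjusted p = 0.603). IGFBP1 and CYBRD1 differed by -0.07 ± 0.39 and -0.22 ± 0.28, and the PTGDR means of both groups lay under 6.19.

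With no gene called, some lists lay wholly or mostly to 1 side, and those given here were picked from them. The median difference over all probe sets was 0.012. Members of a list share samples and may vary together, so their counts are not ones of independent observations. Whether a list as a whole differed between the groups was not tested. All 10 MHC class II genes lay lower with R5020 than without it (median -1.13), as did all 13 macrophage markers (median -0.84). Of 20 interferon response genes 2 lay higher with R5020 (median -0.62), and of 6 T and NK lymphocyte markers 1 (median -0.60). Against untreated tissue, the macrophage list had a median of 1.28 without R5020 and 0.59 with it, and the MHC class II list 1.44 and 0.20. Of 15 sterol synthesis genes 1 lay higher with R5020 (median -0.27), against medians of 1.16 and 0.70 from untreated tissue. Of 24 matrix genes 19 lay higher with R5020 (median 0.23). The number of probe sets called rose from 0 to 25 without R5020-treated replicate 1 and to 47 without replicate 2 of the group lacking R5020. Those arrays, of different groups, lay close to each other (SD 0.321, r = 0.9833 over probe sets). That is closer than any pair of the R5020-treated arrays in set 2 (SD 0.379 to 0.412). Other pairs across groups were about as close. Day 10 replicate 3 of the 3 agents and replicate 1 after 1 day of hCG and trilostane had an SD of 0.318. Untreated replicate 1 and replicate 1 after 1 day of hCG had an SD of 0.325. The cause was not tested. The absence of calls in this comparison therefore depends on single arrays.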

How the data were processed

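The authors deposited 1 column of log2 intensities for each array of the Affymetrix Rhesus Genome platform. How they corrected background, summarized and normalized is not given in the sources used here. Array set is the number in the array names.

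Of 52865 probe sets, 99 Affymetrix controls were removed, each array was centred on its median, and 29134 probe sets with 3 or more arrays above 6.19 (the overall median) were kept. Of these, 17733 have 1 gene symbol in the platform annotation, 242 several and 11159 none. For each of 10568 genes the kept probe set of highest mean in the 30 arrays of sets 1 and 2 stands for the gene. A gene whose mean lies under 6.19 in a group has its fold counted from that median and written as "at least", since the values carry no detection calls. Levels are not set against each other between genes. Probe sets of near-identical paralogs may read more than 1 gene.

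A single limma fit (version 3.58.1 under R 4.3.3; eBayes used a trend in mean and variance) of these 30 arrays had 1 mean per group and array set and 22 residual degrees of freedom, so every comparison lies within 1 array set. There were 4 planned two-sided comparisons and 3 side comparisons. A call is a Benjamini-Hochberg adjusted p under 0.05 over all kept probe sets. The fit was also run on simulated data of independent normal values without outlying arrays. That run cannot speak to the dependence of the calls on single arrays. The members, gene lists (32 lists, 598 entries) and named genes were chosen with earlier results of these data known. Named are the 12 largest rises and 12 largest falls among calls whose arrays do not overlap, up to 3 called members of each list by adjusted p, 12 genes always, and the 5 largest at each end of the other comparisons; LOC symbols are skipped. Of the genes always named, SCARB1 and PTGFR lacked a kept probe set with a single symbol; another is not reported here. Other genes named are list members quoted as examples or were chosen after their values were seen. Set 3, with 1 array per group, was left out of the main fit. The labels do not say that each array is a separate animal, so each p-value reflects only spread among these arrays, possibly technical, and the number of arrays limits the precision. Alternatives were other centring and filters, no trend, fewer or all arrays, leaving out each array, and a replicate block.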

Additional observations from a re-analysis of the deposited data

Results flagged for a closer look

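In 2 of the 48 named genes, 1 of the 4 untreated arrays lay far from the other 3; chance gives about 1 in 20. For PLEKHA4 it was untreated replicate 7, at 7.79 against 6.81 to 6.95, and for IDI1 untreated replicate 9, at 9.68 against 10.78 to 10.83. Without those arrays the 2 changes were still positive.

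A total of 14 named genes called against untreated tissue at day 15 also differed, in limma's adjusted p, between 6 days and 1 day of the 3 agents; both changes are taken from the same untreated arrays, so the difference between them is the difference between the treated groups. Higher after 6 days were CHAD (1.74, adjusted p = 0.00891), SLC16A1 (2.10, 0.0146), TRPM3 (1.25, 0.0131), MS4A8 (2.22, 0.00136), CYBRD1 (1.58, 0.00241), IGFBP1 (1.68, 0.0204), EVI2A (1.76, 0.00731) and PLEKHA4 (1.53, 0.00604). Lower after 6 days were AREG (-2.27, adjusted p = 0.00553), HSD3B2 (-1.98, 0.00146), HSD11B1 (-1.12, 0.000706), FSTL3 (-1.42, 0.00553), HAL (-3.08, 5.01e-06) and TDRD9 (-2.51, 0.000145). Of these 6, all but AREG lay above untreated tissue after 1 day, with changes of 0.21 for HSD3B2, 0.38 for HSD11B1, 0.41 for FSTL3, 1.46 for HAL and 1.04 for TDRD9, and below it after 6 days. The rise after 1 day passed for HAL (adjusted p = 0.00817) and not for the other 4 (adjusted p = 0.901, 0.337, 0.621 and 0.1). The day 10 mean of CHAD and the day 15 means of HAL and TDRD9 lay under 6.19, and counted from there their differences were 1.52, -2.98 and -1.96, each a lower bound of its size.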

How the results depend on the processing

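The comparison with untreated tissue (427 probe sets, 197 higher and 230 lower) had 322 to 436 calls, 254 to 420 of them among the 427, without centring, with quantile normalization, with no filter or a filter on the mean, without the trend and with only the 14 arrays of set 2. It gave 86 (37 and 49) with only its 7 arrays, 1218 (561 and 657) with all 33 arrays and an additive array set, and 1029 (656 and 373) with all 8 untreated arrays and no array set term, and 151 to 450 when single arrays were left out. The called members of the gene lists (17) numbered 4, 49 and 47 under those 3 settings and 4 to 23 without single arrays. The setting with all 33 arrays takes in set 3, and so treated replicate 4, nearly equal to replicate 4 without R5020 (SD 0.192). It also takes in replicate 3 of hCG alone, nearly equal to replicate 5 of that group (SD 0.202). The setting with all 8 untreated arrays and no array set term, which gave 1029, takes in no array of set 3. The part of the set 3 arrays in the larger counts was not tested. Against the group without R5020 (0 calls), 6 probe sets passed with no filter and 0 to 47 without single arrays. Against 1 day of the 3 agents (333 calls), 715 passed with all 33 arrays and 81 to 396 without single arrays. The difference from hCG alone gave 0 calls in every alternative run. Of the 38 named genes called against untreated tissue all kept their sign, 15 stayed called in each of the 7 omissions, and 7 also in every other setting (TRPM3, CYBRD1, PTGDR, AREG, CH25H, F2RL1 and HAL). HTR2B, not called, turned to 0.20 with all 33 arrays, 0.08 with all 8 untreated arrays, 0.22 without treated replicate 3 and 0.02 without untreated replicate 9 (single omissions gave -0.80 to 0.22); the cause was not tested. For the main comparison, no paired analysis was possible because untreated replicates 6 to 9 share no numbers with treated replicates 1 to 3. Between treated groups, with the replicate number as a block over replicates 1 to 3, 0 probe sets passed against the group without R5020 and 174 (27 higher and 147 lower) against 1 day of the 3 agents, where the same 9 arrays without the block gave 371. Deviations of arrays of the same number had correlations of 0.0724, 0.0302 and 0.167 with the group without R5020. Unlike numbers gave -0.171 to 0.11 there. With day 10 the same numbers gave -0.198, -0.132 and -0.161, and unlike numbers 0.0279 to 0.146. The correlations of equal numbers were thus small and differed in sign between the groups. The labels do not give pairs either, so the numbers were not taken as pairs.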
